A study of Mus musculus with 12 samples.

Results

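The urea cycle genes of mouse liver were taken as the 8 genes whose Ensembl identifiers map to Nags, Cps1, Otc, Ass1, Asl, Arg1, Slc25a15 and Slc25a13. All 8 were found among the 12086 genes of the expression table, and all 8 passed its minimum value. The rule used gene function and no measured value, but it was set with earlier results of these data known.

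The urea cycle turns ammonia from amino acid breakdown into urea, mainly in hepatocytes near the portal vein. In mitochondria, the Nags product makes N-acetylglutamate, the activator without which Cps1 cannot join ammonia to bicarbonate, and Otc passes the resulting carbamoyl group to ornithine to give citrulline. In the cytosol, Ass1 joins citrulline to aspartate, Asl splits the product into arginine and fumarate, and Arg1 releases urea and returns ornithine, which Slc25a15 exchanges for citrulline across the inner mitochondrial membrane, while Slc25a13 brings out the aspartate. Protein intake, glucagon, glucocorticoids and insulin are known to set the amounts of several of these mRNAs.

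Liver RNA was sequenced from wild-type male C57BL/6 offspring at postnatal day 84, killed in a fasted state per the labels. The chow held 7% simple carbohydrate and 3% lipid by weight, and the obesogenic diet 10% and 20%, together with condensed milk at 55% sugar, 8% fat and 8% protein. Dams were kept on either diet until weaning, and litters were standardised to 6 pups on day 3. From weaning on day 21 the sons ate either diet. The 4 groups were CC (dam and son on chow), CO (dam on chow, son obesogenic), OC (dam obesogenic, son on chow) and OO (both obesogenic). Libraries are numbered from 0 within a group: 3 each for CC, OC and OO, and 2 for CO, where the labels list 3 animals. In the labelled titles, 1 OC and 1 OO animal share a number whose meaning is not stated and which cannot be tied to a library. Whether any animals were littermates is thus unknown, and the fits treat libraries as independent, so p-values measure the spread between these libraries.

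Values are scaled counts (gene counts over a single factor for each library), and library totals ran from 929699 to 1099404. The depth read from the steps of the values was 3976159 reads in OO.1, 27837606 in OO.0 and at most 7969058 elsewhere. In OO.0 the smallest value above 0 was 15 steps, so no gene there held a single read to check the step against. The member values rested on between 196 reads (Nags) and 142335 reads (Cps1). The 13 measured hepatocyte markers were all above 0 in all 11 libraries. Libraries CO.1 and OC.1 had the highest acute phase sums: over 21 such genes the sum was 89206 and 62328 in them, against 19458 to 32252 in the other 9. Abundant genes weigh most in this sum. Saa1, 1 of the 21, was also 389 in CO.0, 298 in OO.1, 86.6 in OO.2 and 65.2 in OC.0. It was 21.3 to 36.1 in CC, 22.5 in OO.0 and 14.4 in OC.2. Over 16 pancreatic genes, OC.0 had a sum of 6947, CO.1 of 4431 and CC.1 of 1040, while the other libraries had 7.60 to 146.

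Among the mitochondrial enzymes, Cps1, which commits ammonia to the cycle, was the most abundant member. Its scaled counts were 12532, 8392 and 12334 in CC and 5906 and 3308 in CO. They were 7468, 6397 and 5323 in OC, and 4754, 2745 and 3603 in OO. Every CC library lay above every library of the other 3 groups, and every OC library lay above every OO library. The CO libraries spanned the range from below the middle OO library to within the OC range.

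Otc, the enzyme that makes citrulline, did not follow Cps1. Its scaled counts were 402, 518 and 402 in CC, and 529 and 272 in CO. They were 400.1, 457 and 394 in OC and 422, 368 and 439.9 in OO. All 4 groups overlapped, and the CO libraries held both the highest and the lowest value of the 11.

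Nags, which makes the activator of Cps1, was the least abundant member. Its scaled counts were 60.1, 56.7 and 60.5 in CC and 57.7, 65.5 and 58.9 in OC. They were 36.7 and 53.3 in CO, and 45.1, 54.2 and 52.6 in OO. The lowest library of sons on chow, at 56.7, lay above the highest of sons on the obesogenic diet, at 54.2, although the gap was small.

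The 3 cytosolic enzymes shared 1 pattern, with CC highest, OC next, and CO and OO low together. Ass1, which makes argininosuccinate, had scaled counts of 2284, 1432 and 1699 in CC, and 842 and 478 in CO. Its values were 1308, 977 and 879.8 in OC and 816, 494 and 947 in OO. Every CC library was above every library of the other groups, while the highest OO library, at 947, lay within the OC range.

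Of the 4 enzymes called lower in at least 1 comparison below, Ass1 was the 1 matched in the RefSeq table of promoters used here, which matched 5 of the 8 members and not Cps1, Asl or Arg1. Its upstream sequence is shown to set out its base composition, at chr2:31470020-31470206 on the plus strand of GRCm38.p6, a build other than the mm8 of the alignment. It runs from 250 to 64 bases before the RefSeq transcript start, ending at the base before the most upstream GENCODE M21 start, and capitals mark each CG pair.
Ass1: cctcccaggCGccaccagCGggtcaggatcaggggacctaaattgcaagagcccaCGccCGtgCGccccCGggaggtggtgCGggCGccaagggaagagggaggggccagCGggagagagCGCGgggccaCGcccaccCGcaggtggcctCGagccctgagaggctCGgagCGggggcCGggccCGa
These 187 bases hold 18 CG pairs, where the median over the same window of 32851 promoters was 4 and 10.3% of them held at least as many. Of the bases 75.4% were G or C, against a median of 51.3%. In the whole 250 bases before the RefSeq start, neither strand held the cyclic AMP response element TGACGTCA (in 1.55% of all promoters), the C/EBP palindrome TTGCGCAA (0.164%), CCAAT (33.8%), TATAAA (12.4%) or TGTTCT, part of the glucocorticoid response element (16.1%). Among the 4 other members in the table, the windows of Otc, Nags and Slc25a15 had none of the 5 motifs, and that of Slc25a13 had a single CCAAT at 22 to 18 bases before its start. A missing match says only that these letters are not in these windows.

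Asl, which splits argininosuccinate into arginine and fumarate, had the widest range of the 8 members relative to its level. Its scaled counts were 1824, 907 and 1554 in CC, and 859, 705 and 691 in OC. They were 426 and 200.4 in CO, and 366, 207 and 323 in OO. Libraries of sons on the obesogenic diet ran from 200.4 to 426 and those of sons on chow from 691 to 1824, with no overlap.

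Arg1, the arginase that releases urea, had scaled counts of 2912, 1523 and 2156 in CC and 1376, 1587 and 1205 in OC. They were 792 and 742 in CO and 766, 638 and 903 in OO. Obesogenic-fed and chow-fed sons again did not overlap, with the highest obesogenic-fed library at 903 and the lowest chow-fed one at 1205. In contrast to Asl, the OC and CC libraries overlapped, since OC.1 (1587) exceeded CC.1 (1523).

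Of the transporters, Slc25a15, the ornithine and citrulline carrier, had scaled counts of 497, 465 and 577 in CC and 399, 462 and 378 in OC. They were 390.4 and 343 in CO, and 375, 238 and 323 in OO. The group means fell in the order CC (513), OC (413), CO (367) and OO (312), but neighbours in that order overlapped or lay close together. Slc25a13, the aspartate and glutamate carrier called citrin, had scaled counts of 335, 388 and 396 in CC, and 395 and 360.4 in CO. They were 322, 337 and 394 in OC and 428, 349 and 360.0 in OO, so that all groups overlapped.

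**Figure D1:**
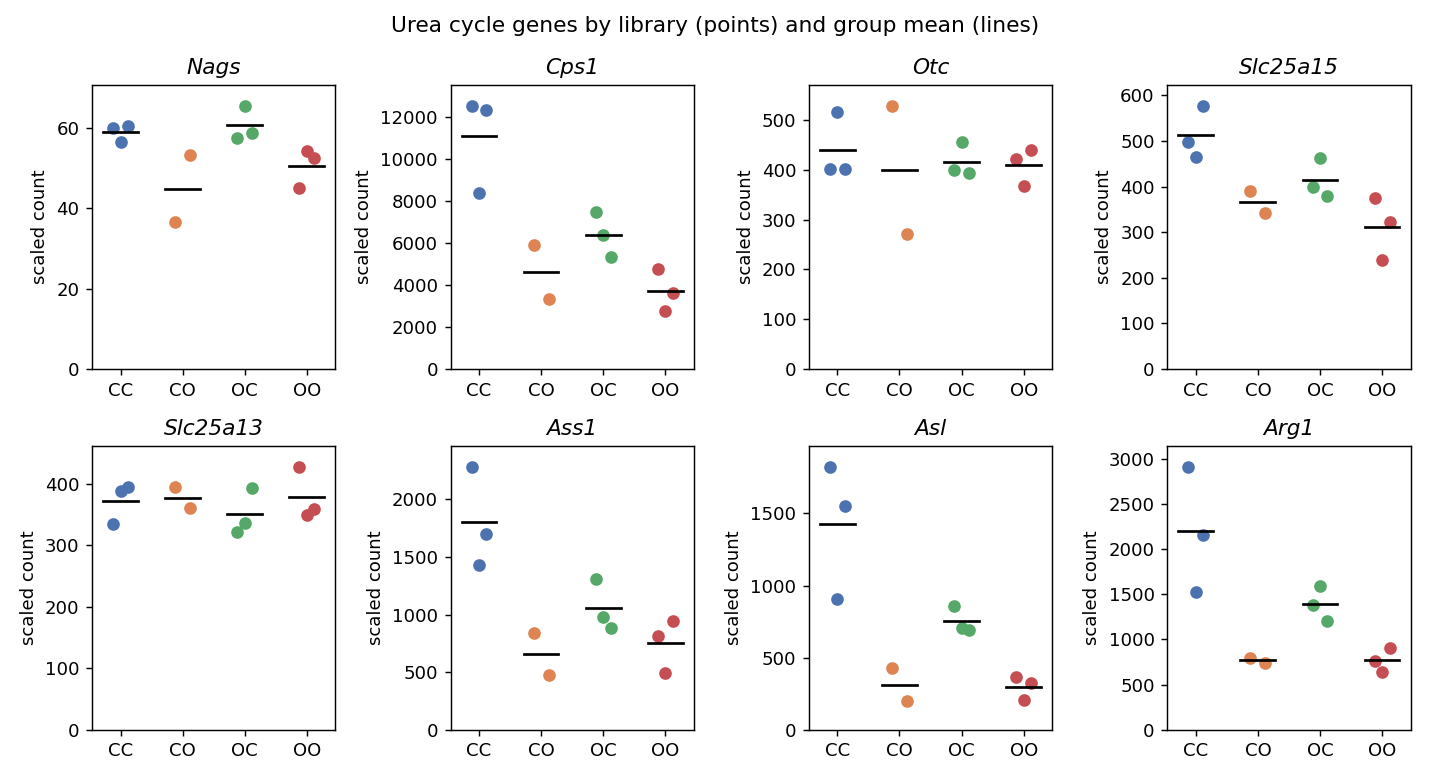
Scaled counts (vertical axes, starting at 0) of the 8 urea cycle genes in each library (points) of CC, CO, OC and OO, with group means as lines. For Asl and Arg1 all 5 libraries of sons on the obesogenic diet lie below all 6 of sons on chow, while for Otc and Slc25a13 the groups overlap.

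Levels were compared between members per kilobase, using the exon lengths of GENCODE M21, which may differ from the annotation that the authors counted on. In CC, Cps1 stood at 1996 ± 420 scaled counts per kb (SD, n = 3), Arg1 at 1488 ± 471 and Ass1 at 1064 ± 257. Asl followed at 479 ± 158. The carriers Slc25a15 and Slc25a13, at 150 ± 16.8 and 119 ± 10.6, and Otc, at 104 ± 15.7, made up a lower tier, and Nags was at 29.1 ± 1.04. The ranges of Cps1 and Arg1 overlapped, as did those of Arg1 and Ass1. Otc and Slc25a13 had overlapping ranges, and Otc moved to 147 when only its longest transcript gave the length. In CO the order per kb was Cps1 (829 ± 331, n = 2), Arg1 (519 ± 24.0), Ass1 (389 ± 152), Slc25a13 (121 ± 7.81), Slc25a15 (107 ± 9.82), Asl (105 ± 53.5), Otc (94.4 ± 42.8) and Nags (22.2 ± 5.79). Asl, which stood well above the carriers in CC, was thus at their level in CO, where the 3 differed by less than the spread of Asl.

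The comparison of CO with CC asked what the obesogenic diet after weaning did in sons of chow-fed dams. All 3 cytosolic enzymes fell. Asl was 4.68-fold lower, with a log2 difference of -2.23 (SE 0.36, 95% confidence interval -3.00 to -1.45; limma's moderated test on log2(value + 0.5), Benjamini-Hochberg adjusted p = 0.0173). Arg1 was 2.77-fold lower (log2 -1.47, SE 0.26, limma adjusted p = 0.0223) and Ass1 2.79-fold lower (log2 -1.48, SE 0.32, adjusted p = 0.0447). In whole liver, fewer cells of a type and less RNA per cell cannot be told apart. These 3 of 8 members compare with 0.778% of all genes that were called lower. Cps1 had a log2 difference of -1.30 (SE 0.35) and missed the threshold (limma adjusted p = 0.0924), as did Slc25a15 (-0.48, adjusted p = 0.226) and Nags (-0.41, adjusted p = 0.208). For Otc the difference was -0.21 with an interval of -0.72 to 0.31, and for Slc25a13 it was 0.02 with an interval of -0.30 to 0.34. In 6 of the 8, all but Otc and Slc25a13, both CO libraries lay below all 3 CC libraries, which held for 17.9% of all genes. Unadjusted p-values were under 0.05 for the same 6, against 16.8% of all genes, and the members' median log2 difference was -0.89 against -0.01 over all genes.

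The 3 calls in CO against CC depended on single libraries. Without CC.0, without CC.2 or without CO.1, none of the 8 members passed, and for Asl the limma adjusted p became 0.0692, 0.0689 and 0.108. Arg1 was also lost without CO.0 (adjusted p = 0.0548), and Ass1 without any 1 of the OC libraries or OO.0 (0.0504 to 0.0637). When the fit held only CC and CO, none passed (limma adjusted p = 0.0561 for Asl). CO.1 was the lower CO library for all members but Nags, and had high acute phase and pancreas transcripts. With CO.0 as the only CO library, the log2 difference was -1.68 for Asl and -1.42 for Arg1. The part of the acute phase and pancreas transcripts in these differences was not tested.

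The comparison of OO with OC asked the same of sons of obesogenic-fed dams. None of the 8 members passed, where 0.165% of all genes did (20 genes in either direction). The log2 difference was -1.36 for Asl (SE 0.32, interval -2.06 to -0.67, limma adjusted p = 0.209), a fitted ratio of 2.57-fold lower. It was -0.86 for Arg1 (SE 0.23, adjusted p = 0.300), -0.81 for Cps1 (SE 0.32, adjusted p = 0.551) and -0.52 for Ass1 (adjusted p = 0.721). Slc25a15 was at -0.42 and Nags at -0.26, while Otc (-0.03, interval -0.49 to 0.44) and Slc25a13 (0.11, interval -0.18 to 0.40) were near 0. All 3 OO libraries lay below all 3 OC libraries for 5 members, Cps1, Asl, Arg1, Nags and Slc25a15, as they did for 6.14% of all genes. Unadjusted p-values were under 0.05 for Cps1, Asl, Arg1 and Slc25a15, against 8.01% of all genes.

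**Figure D2:**
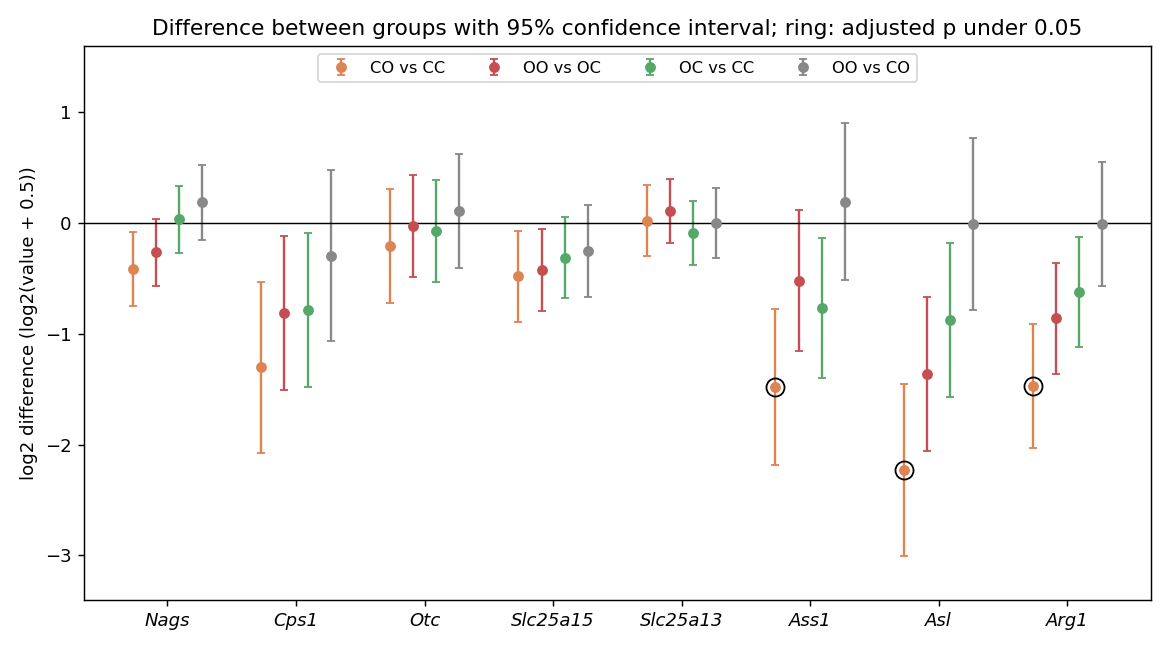
Log2 difference on the log2(value + 0.5) scale (vertical axis) with its 95% confidence interval for each urea cycle gene in 4 comparisons of groups; a ring marks an adjusted p under 0.05. Rings are present for Ass1, Asl and Arg1 in CO against CC, and the intervals of OO against CO all include 0.

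Averaged over both maternal diets, 4 of the 8 members were lower in sons on the obesogenic diet, where 1.72% of all genes were called lower. Asl was 3.47-fold lower (log2 -1.80, SE 0.24, interval -2.32 to -1.27; limma adjusted p = 0.0027). Arg1 was 2.24-fold lower (log2 -1.16, SE 0.17, adjusted p = 0.00454), Cps1 2.08-fold lower (log2 -1.06, SE 0.24, adjusted p = 0.0318) and Ass1 2-fold lower (log2 -1.0, SE 0.22, adjusted p = 0.028). The carrier Slc25a15, at -0.45 (SE 0.13, limma adjusted p = 0.0701), and Nags, at -0.34 (SE 0.10, adjusted p = 0.0962), missed the threshold. Otc was at -0.12 with an interval of -0.46 to 0.23, and Slc25a13 at 0.07 with an interval of -0.15 to 0.28, so a fall as large as the estimate for any of the 4 called enzymes lies outside both intervals. The members' median was -0.73 and that of all genes 0.00, to 2 decimals. All 5 libraries of obesogenic-fed sons lay below all 6 of chow-fed sons for Asl, Arg1 and Nags, 3 of 8 members, against 1.76% of all genes.

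In this average, Asl and Arg1 passed in all 21 alternative fits that differed from the reported one, with log2 differences of -2.07 to -1.47 for Asl and -1.28 to -1.05 for Arg1. Ass1 passed in 15 of the 21 and Cps1 in 13. Both were lost without CC.0, CC.2, OC.0 or CO.1. The limma adjusted p was then 0.0705, 0.0634, 0.0685 and 0.118 for Ass1, and 0.083, 0.0825, 0.0734 and 0.123 for Cps1, which was lost also without OO.1 (0.0681) or OO.2 (0.055). Nags, in contrast, passed without CO.1 (log2 -0.47, limma adjusted p = 0.031), whose value of 53.3 was closer to the chow-fed libraries than that of CO.0. Without both CO.1 and OC.1, the libraries with the highest acute phase sums, Asl stood at -1.55 and Arg1 at -1.09. Without CO.1 and OC.0, the libraries highest in pancreas transcripts, they stood at -1.47 and -1.14. Both fits leave 1 CO library. Ass1 and Cps1 did not keep their calls across these fits. Over the 21 fits the log2 difference was -1.20 to -0.71 for Ass1 and -1.27 to -0.79 for Cps1.

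The comparison of OC with CC asked what the dam's obesogenic diet did in sons that ate chow. None of the 8 members passed, and the percentage of all genes called was 0. At an unadjusted p under 0.05 there were 4 members and 636 genes, or 5.26% of all. The 4 were Asl (log2 -0.87, SE 0.32, interval -1.57 to -0.18), Cps1 (-0.78, SE 0.32), Ass1 (-0.77, SE 0.29) and Arg1 (-0.62, SE 0.23), all with a limma adjusted p of 0.923. All OC libraries lay below all CC libraries for Cps1, Ass1, Asl and Slc25a15, as for 6.14% of all genes. Slc25a15 was at -0.31, Slc25a13 at -0.09, Otc at -0.07 and Nags at 0.04. The comparisons of CO with CC and of OC with CC use the same CC libraries, and CC.0 and CC.2 were higher than CC.1 in Cps1, Ass1, Asl and Arg1.

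The comparison of OO with CO asked what the dam's diet did in sons on the obesogenic diet. None of the 8 members passed, against 0.0414% of all genes (5 genes), and none had an unadjusted p under 0.05. Log2 differences ran from -0.29 for Cps1 to 0.19 for Ass1. For Asl the difference was -0.01 with an interval of -0.79 to 0.77, and for Arg1 it was -0.01 with an interval of -0.57 to 0.55. With 2 CO libraries these intervals are wide, and the missed threshold does not show that the groups were alike.

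Averaged over the sons' diets, the maternal obesogenic diet gave no call among the 8 members, against 0.0331% of all genes (4 genes). Cps1 had a log2 difference of -0.54 (unadjusted p = 0.0434) and Slc25a15 of -0.28 (unadjusted p = 0.0464), with limma adjusted p = 0.789 for both. The interaction, which tests whether the effect of the sons' diet differed between maternal diets, likewise called none of the 8, against 0.0331% of all genes (4 genes). Ass1 had an interaction of 0.96 on the log2 scale (interval 0.01 to 1.91, unadjusted p = 0.048, limma adjusted p = 0.936), Asl of 0.86 (interval -0.18 to 1.91) and Arg1 of 0.61 (interval -0.14 to 1.36). All 8 interactions were above 0, that is, the log2 difference was less negative or higher in OO against OC than in CO against CC. The call of Asl, Arg1 and Ass1 in CO against CC and not in OO against OC therefore goes with no passed test of a difference between them.

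Steps of the cycle that follow each other were also set against each other within a library, as ratios chosen after the values were seen and given without a test. The ratio of Asl to Ass1 was 0.782 ± 0.141 in CC (SD, n = 3) and 0.721 ± 0.0642 in OC. It was 0.462 ± 0.0611 in CO (n = 2) and 0.403 ± 0.0556 in OO. The lowest value in chow-fed sons was 0.633 (CC.1) and the highest in obesogenic-fed sons 0.506 (CO.0), so that Asl was low even relative to the enzyme before it. Cps1 to Otc was 26.0 ± 8.50 in CC, 15.4 ± 2.84 in OC, 11.7 ± 0.702 in CO and 8.97 ± 2.03 in OO. A ratio within a library does not depend on the factor that scaled it, but shows only that the pair changed unequally.

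Across the 11 libraries the members fell into a correlated set and the rest, given here as a description, since the libraries share group differences and scaling. Pearson's r on the log2 scale was 0.971 for Cps1 and Asl, 0.952 for Ass1 and Asl, 0.958 for Asl and Arg1 and 0.927 for Cps1 and Slc25a15. With group means removed, r was 0.951 for Cps1 and Asl and 0.901 for Ass1 and Asl, but 0.690 for Asl and Arg1. In all 4 groups the library with the lowest Cps1 also had the lowest Asl: CC.1, CO.1, OC.2 and OO.1. Otc had r of 0.378 with Cps1 and 0.361 with Asl, and Slc25a13 had -0.032 and -0.110. Within groups, Nags ran against Cps1 (r = -0.658) and Otc (r = -0.761).

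The genes whose levels most resembled the mean profile of the members, over 11 libraries and 9319 genes with a mean of at least 5, were Mif (r = 0.964), F12 (0.961), Got1 (0.954), Baat (0.951), Cyc1 (0.944) and Pum3 (0.942). Mif encodes a cytokine with tautomerase activity, F12 a coagulation factor, Got1 the cytosolic aspartate aminotransferase, Baat an enzyme that conjugates bile acids and Cyc1 a subunit of the mitochondrial cytochrome bc1 complex. Got1 spanned the widest range of these, with 416 ± 91.5 scaled counts in CC, 213 ± 41.3 in OC, 140.0 ± 28.5 in CO, and 107 ± 47.4 in OO, in the same order as Cps1. Mif had a narrow range, from 44.9 ± 0.971 in CC to 32.1 ± 1.93 in CO. At the other end stood Trim56 (r = -0.962), St6gal1 (-0.943) and Fyb (-0.934). St6gal1, a sialyltransferase, ran from 51.5 ± 12.3 in CC to 124 ± 42.9 in CO.

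For single members, the most similar gene was Got1 for both Cps1 (r = 0.976) and Slc25a15 (0.972), and Cth, the enzyme that makes cysteine from cystathionine, for both Ass1 (0.970) and Asl (0.960). Cth had 810.5 ± 190 scaled counts in CC, 566 ± 137 in OC, 265 ± 121 in CO and 297 ± 104 in OO. For Arg1 it was Slc37a4 (0.972), the glucose 6-phosphate carrier of the endoplasmic reticulum. Otc was most like F13b (0.932), a subunit of a coagulation factor, Nags most like Arhgap17 (0.906) and Slc25a13 most like Mtif2 (0.913), a mitochondrial translation initiation factor.

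**Figure D3:**
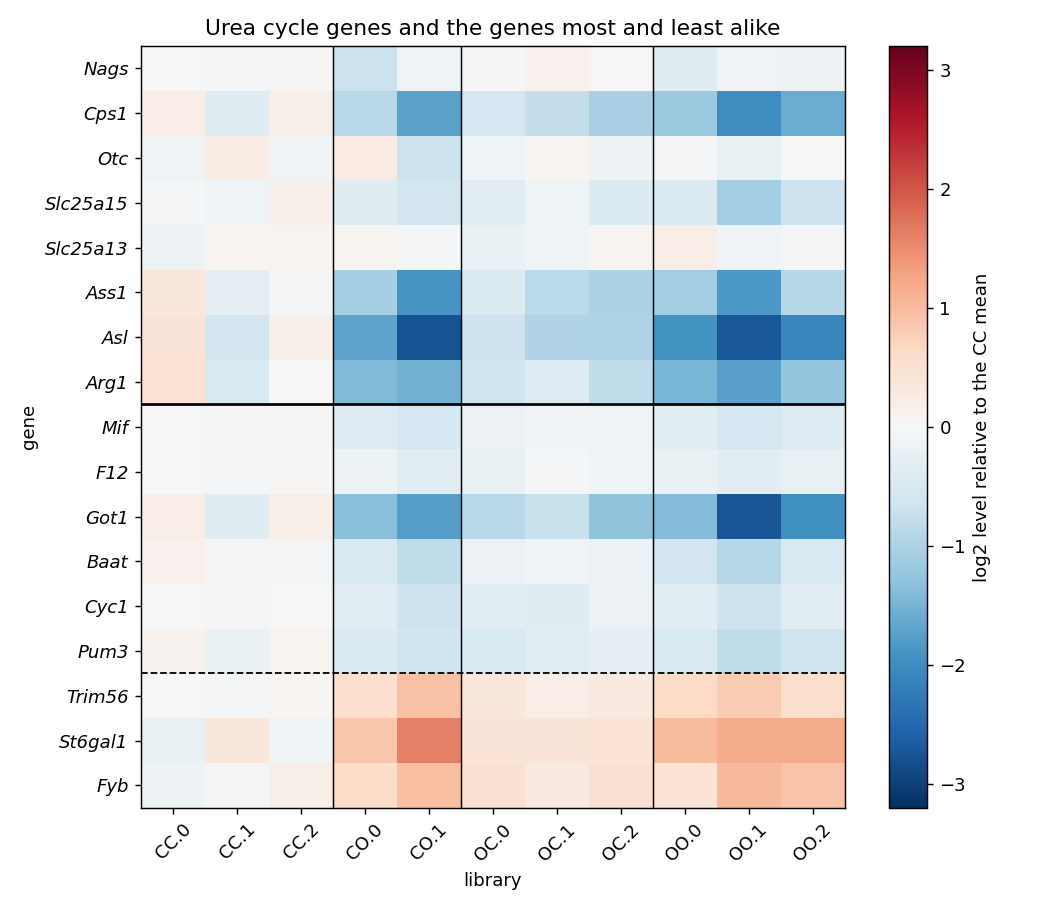
Log2 level of each gene (rows) in each library (columns) relative to the mean of the 3 CC libraries, from blue (lower) to red (higher). Above the solid line stand the 8 urea cycle genes, below it the 6 genes most like their mean profile, and below the dashed line the 3 least like it; CO.1 and OO.1 have the lowest Asl, and Got1 follows Cps1.

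Of 27 measured genes that feed nitrogen to the cycle or handle arginine and ornithine, 2 fell and 1 rose in the average effect of the sons' diet, beside 1.72% of all genes called lower and 2.24% called higher, and the list's median was -0.08. Got1, which makes aspartate in the cytosol, fell 2.49-fold (log2 -1.31, SE 0.22, limma adjusted p = 0.00929). Gls2, the liver glutaminase that frees ammonia from glutamine, had a log2 difference of -0.91 (adjusted p = 0.0252). Slc1a2, a glutamate transporter of pericentral hepatocytes, rose by 0.45 on the log2 scale (adjusted p = 0.0467), a call lost on leaving out any library but CO.0. Glud1, the glutamate dehydrogenase that frees ammonia in mitochondria, was at -0.08, and the mitochondrial aminotransferase Got2 at -0.01. In CO against CC only Got1 of the 27 passed (log2 -1.56, limma adjusted p = 0.0438), where 0.778% of all genes were called lower. None of the 27 passed there without CC.0, CC.2, CO.1, OC.0 or OC.2, with a robust variance or without the intensity trend, and 2 did with quantile scaling or sample weights. Without CO.1 and OC.1, or without CO.1 and OC.0, none of the 27 passed in the average.

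Of 19 receptors and transcription factors known to act on urea cycle genes, 1 rose and none fell, beside 2.24% of all genes called higher. The 1 was Cebpb (log2 0.52, SE 0.13, limma adjusted p = 0.0433), a C/EBP factor that also acts in the acute phase response. Its scaled counts were 37.7 ± 6.34 in CC and 36.0 ± 4.84 in OC, with 60.5 ± 2.11 in CO and 46.7 ± 10.4 in OO. The call of Cebpb was lost without CC.1, CC.2, CO.0, OC.0, OC.1 or OO.0 and without the intensity trend, which left 0 of the 19. The glucagon receptor Gcgr (-0.03), the glucocorticoid receptor Nr3c1 (0.16) and Hnf4a (-0.08) did not pass. Ppargc1a and Ppara did not pass either, but their group means differed with the sons' diet. Ppargc1a had means of 18.7 in CC and 15.4 in OC, against 10.9 in CO and 11.7 in OO. Its OC and OO ranges overlapped. Ppara had means of 195 in CC and 219 in OC, against 248 in CO and 283 in OO. Its OC and CO ranges overlapped. Of the 19 log2 differences, 11 were above 0 and 8 below.

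Of 15 glucagon and glucocorticoid target genes, 6 fell and none rose, with a list median of -0.55, where 1.72% of all genes were called lower. Apart from Got1, the 3 with the smallest p were Tat, which breaks down tyrosine (log2 -1.23, SE 0.23, limma adjusted p = 0.0149), Sds, which breaks down serine (-1.11, adjusted p = 0.0155) and G6pc, the last step of glucose release (-1.28, adjusted p = 0.0248). Pck1, the first committed enzyme of gluconeogenesis, was at -0.47 (adjusted p = 0.381). In CO against CC 3 of the 15 fell, beside 0.778% of all genes called lower. Without CC.0, CC.2 or CO.1 alone, the 6 became 3 and the 3 in CO against CC became 0. Without CO.1 and OC.1, and likewise without CO.1 and OC.0, 1 of the 15 passed in the average and none in CO against CC.

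Because the urea cycle runs mainly in periportal hepatocytes, markers of both ends of the liver lobule were read beside it. In the average effect of the sons' diet, 1.72% of all genes were called lower and 2.24% higher. Of 16 other periportal genes, 7 fell and none rose (median -0.44), and 5 to 8 fell when each library was left out. The 4 with the smallest p were Etnppl, a phospholyase (log2 -2.51, SE 0.33, limma adjusted p = 0.0027), Hal, the histidine ammonia lyase (-1.20, adjusted p = 0.0102), Sdsl (-1.08, adjusted p = 0.0109) and Tat (-1.23, adjusted p = 0.0149). The periportal marker Cyp2f2 was at 0.01 and the cell adhesion gene Cdh1 at 0.05. Of the 16 log2 differences, 4 were above 0 and 12 below. Apoa4, also of this list, was not called but had higher values on the obesogenic diet. Its scaled counts ran from 1066 to 2496 in OO, against 318 to 984 in OC. Its CO mean was 2064 and its CC mean 1117, with overlapping ranges. Tat, Hal and Sdsl break down amino acids, and 3 of the 7 (Tat, Sds and Gls2) stand in the lists above as well. Of 15 measured pericentral genes, 2 rose and 1 fell (median 0.17): Slco1b2, an organic anion transporter (0.65, limma adjusted p = 0.0188), Slc1a2 (0.45, adjusted p = 0.0467) and Cyp27a1, a bile acid enzyme (-0.86, adjusted p = 0.00148). When each library was left out, 0 or 1 rose and 1 or 2 fell. Glul, the glutamine synthetase that clears the ammonia that passes the periportal cells, was at 0.41 (adjusted p = 0.0973). Of the 15 pericentral log2 differences, 9 were above 0 and 6 below. Without CO.1 and OC.1 the periportal count was 3, and without CO.1 and OC.0 it was 1.

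**Figure D4:**
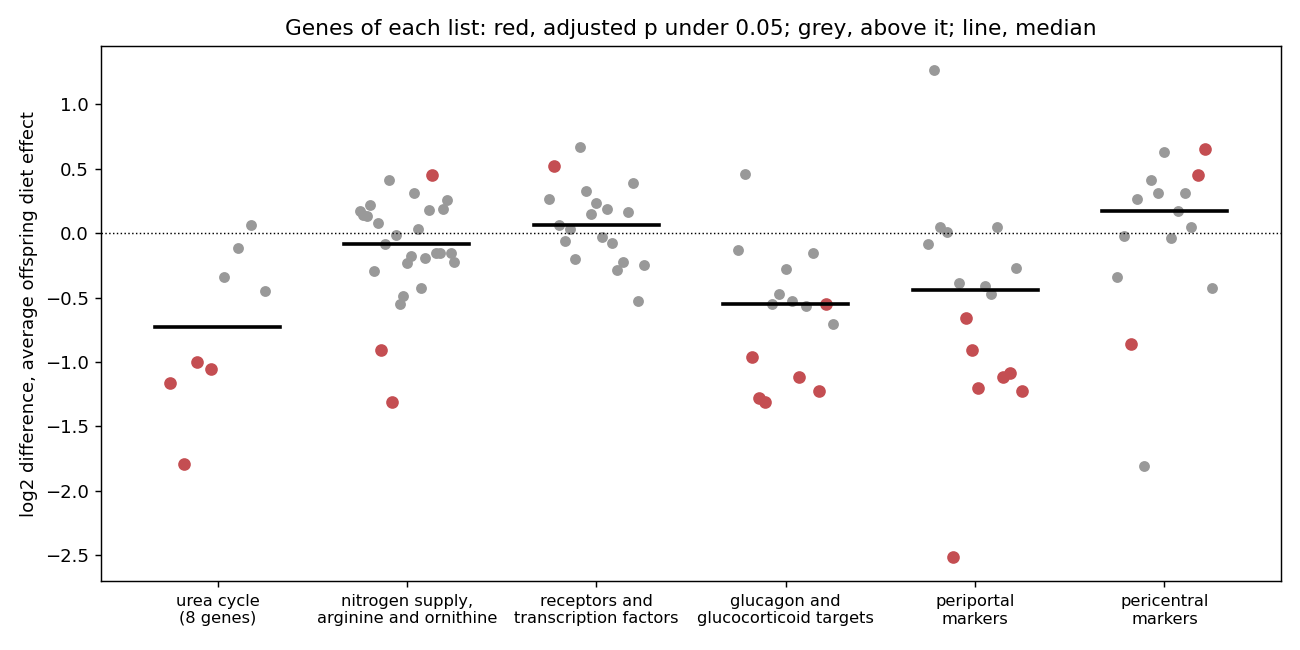
Log2 difference in the average effect of the sons' diet (vertical axis) for each gene of the urea cycle list and 5 related lists; red points have an adjusted p under 0.05 and lines are list medians. The medians run from -0.73 for the urea cycle to 0.17 for pericentral markers.

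Markers of cell types were read the same way, beside 1.72% of all genes called lower and 2.24% called higher. Of 13 measured hepatocyte markers none rose or fell (median -0.05), with Alb and Tf not analysed here, and the sum over the 13 ran from 59776 in OC.0 to 96631 in CO.1. Fga, Fgb, Fgg and Hpx stand in the acute phase list as well, whose sum was also highest in CO.1. None of 16 pancreas, 10 stellate cell and fibroblast, 6 endothelial, 6 skeletal muscle or 3 cholangiocyte markers passed, and 8 of the 16 pancreas genes were listed at 0 in at least 1 library. Of 14 macrophage markers 1 rose (Mpeg1, log2 0.92), and the list's sum was 502 to 668 in CC and 567 to 883 in OC, with 744 to 771 in CO and 810 to 811 in OO. Of 3 measured neutrophil genes 1 rose (S100a8, log2 1.62), and Fabp2, the 1 measured small intestine marker, rose by 0.79. Of 21 acute phase genes 4 rose: Saa4 (log2 1.43), Il1rn (1.72), Stat3 (0.62) and Steap4 (2.19). The part of macrophage, neutrophil and acute phase transcripts in the urea cycle differences was not tested. The fits without CO.1 and OC.1 kept CO.0 and OO.1, with Saa1 at 389 and 298 against 21.3 to 36.1 in CC. Within OC, OC.1 had the highest acute phase sum. It had Cps1 at 6397 and Asl at 705, between the other OC libraries, and the highest Arg1, Otc, Nags and Slc25a15 of its group. These are values of 1 library and no test of the acute phase part.

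**Figure D5:**
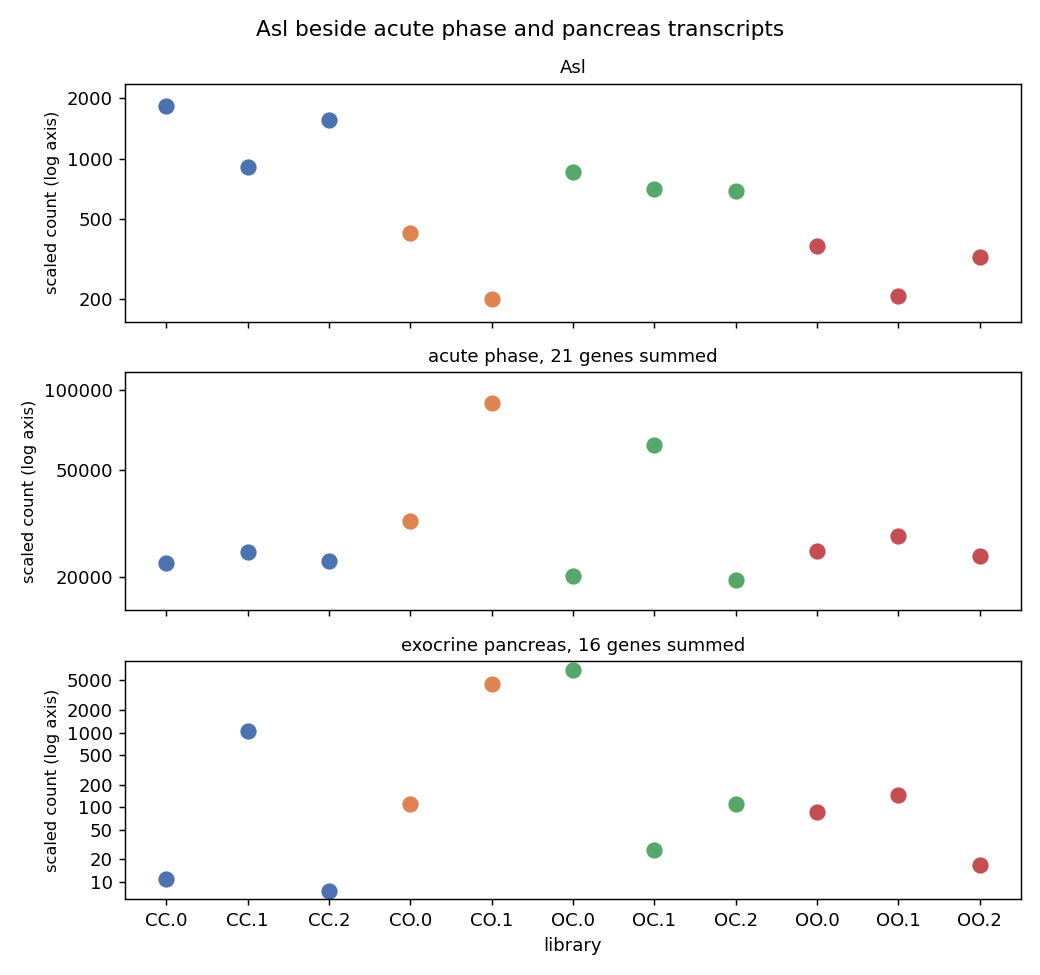
Asl, the sum of 21 acute phase genes and the sum of 16 pancreas genes in each library, as scaled counts on log axes. Asl is low in CO.0 and in all 3 OO libraries, whose acute phase sums run from 23873 to 32252, as well as in CO.1 with 89206. The acute phase sums of CC run from 22428 to 24758, and those of CO.0, OO.0 and OO.1 lie above them. The part of acute phase transcripts in the Asl differences was not tested.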

How the data were processed

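Liver RNA was extracted with a DNase step and made into TruSeq libraries, per the labels' protocols. Reads were aligned to mm8 with Bowtie 1.2.3 according to the submitters' processing notes, and every column derives from its own alignment file, per the file headers. For the counter, annotation, strand setting, scaling and the division of reads between similar or overlapping genes, no step is given in the sources used here. The authors deposited a signal, which its own steps show to be gene counts over a single factor for each library: 95.4% to 97.2% of a library's values were whole multiples of 1 read within 0.01. In several libraries the smallest values were below 1 read, so no test for counts was run. Column names gave the group but not the labelled sample. A floor of 3 reads lay between 0.1 and 0.829 scaled counts, which covers counting error only.

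Symbols came from a table of Ensembl identifiers, for 11965 of 12086 genes. Limma 3.58.1 in R 4.3.3 was fitted to log2(value + 0.5) of all 11 libraries with an intensity trend and 1 mean per group (7 residual and 4.66 prior degrees of freedom), for 7 comparisons, each adjusted over the 12086 genes with a value of 1 in at least 3 libraries, at a threshold of 0.05. The script was tested on simulated data. Fold changes are on that log2 scale. Members and lists were chosen with earlier results of these data known. All members were named, with up to 4 genes per list that passed in the average effect of the sons' diet or in CO against CC, by smallest p. In lists with no call, the planned naming of the 2 genes with the smallest p was not carried out. Other list genes given with a value (Glud1, Got2, Gcgr, Nr3c1, Hnf4a, Ppargc1a, Ppara, Pck1, Cyp2f2, Cdh1, Apoa4, Glul and Saa1) were chosen after their values were seen. Similar genes were those with the highest and lowest Pearson r, leaving out symbols of predicted genes. Alternatives were pseudocounts of 0.1 and 2, other scalings, no minimum and a minimum of 5, sample weights, a robust variance, the 2 groups compared alone and leaving out each library. After the data were seen, fits without CO.1 and OC.1, without CO.1 and OC.0, and without the trend were added.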

Additional observations from a re-analysis of the deposited data

How the results depend on the processing

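All 12086 genes passed the minimum value, so the fit without it was the reported one and tested nothing, and a robust variance, no trend or a fit of only 2 groups cannot change a log2 difference, only its p. Over the alternatives of 44 log2 differences of members, 38 values lost and 4 gained a call, and 27 turned direction, 0 of them among called differences. In CO against CC, the 3 members called became 0 with only the 2 groups compared, 0 without CO.1 and OC.1, 0 without CO.1 and OC.0, and 0 to 3 when each library was left out. In the average effect of the sons' diet, the 4 called became 2 without CO.1 and OC.0 and 2 to 5 when each library was left out. Leaving out a CO library leaves 1, assumed to vary like the other groups. Log2 differences that turned were those of Otc, Slc25a13, Nags and, in OO against CO, the abundant enzymes. In CO against CC, Otc was 0.27 without CO.1 and OC.1 and without CO.1 and OC.0 (-0.68 to 0.27 leaving out each library), and Slc25a13 was -0.0058 with sample weights (-0.0547 to 0.0865). In OO against OC, Otc was 0.0276 with sample weights and 0.0428 without CO.1 and OC.1 (-0.078 to 0.05). In OC against CC, Otc ran from -0.14 to 0.0497, and Nags was -0.0193 without CO.1 and OC.1 (-0.0193 to 0.0721). In OO against CO, Cps1 ran from -0.71 to 0.13. There Ass1 was -0.22 without CO.1 and OC.1 or without CO.1 and OC.0 (-0.22 to 0.60), Asl was 0.0352 with quantile scaling and 0.18 with sample weights (-0.55 to 0.53), and Arg1 was 0.0304 with quantile scaling (-0.13 to 0.12). In the average effect, Otc was 0.16 without CO.1 and OC.1 and 0.11 without CO.1 and OC.0 (-0.35 to 0.12). The cause was not tested. Genes called over all 12086 ranged from 14 to 233 in CO against CC (216 as reported), 8 to 124 in OO against OC (20), 0 to 2 in OC against CC, 4 to 20 in OO against CO (5), 134 to 747 in the average effect of the sons' diet (479), 3 to 6 in that of the maternal diet and 3 to 5 in the interaction (4 each). No paired analysis was possible because the libraries carry no labelled number that pairs them. The planned tests with edgeR, DESeq2 and voom were not run, since whole reads could not be recovered in every library. Nags rested on the fewest reads of the members, 196 to 1349 per library.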
